A study of Mus musculus with 8 samples.

Results

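The nuclear genes of oxidative phosphorylation were taken from the expression table by symbol: every row whose symbol starts with Nduf, Uqcr, Atp5, Cox4i, Cox5, Cox6, Cox7 or Cox8, together with Sdha, Sdhb, Sdhc and Sdhd. This gave 92 of 23993 rows, of which 36 were subunits of complex I, 7 were complex I assembly factors (Ndufaf), 4 were subunits of complex II, 8 of complex III, 20 of complex IV and 15 of complex V. Atp5s and Atp5sl, which carry the prefix but are not part of the ATP synthase, made up the other 2 rows. Expression was measured by polyA RNA sequencing of whole thoracic aortas, with 4 libraries from mice with Tsc1-deficient smooth muscle (Tsc1-/-) and 4 from mice with intact Tsc1 (Tsc1+/+); the labels do not say whether each library is a separate mouse. The Tsc1-/- mice carried floxed alleles of Tsc1 (Tsc1fl/fl), Myh11-CreERT2 and mT/mG; the Tsc1+/+ mice carried Myh11-CreERT2 and mT/mG alone. The mice of both groups were male, of the C57BL/6 strain, received tamoxifen at the age of 1.5 weeks and were analysed at 24 weeks. Myh11-CreERT2 is a Cre recombinase that tamoxifen activates and that the smooth muscle myosin promoter drives, so other cells of the vessel keep Tsc1, and mT/mG is a fluorescent reporter of recombination. SMCs are given as the cell type, although whole vessels were frozen and crushed and no sorting is described, so RNA of all cells of the vessel was measured.

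Oxidative phosphorylation couples the oxidation of NADH and succinate to ATP synthesis in the inner mitochondrial membrane. Complexes I and II pass electrons to coenzyme Q, complex III passes them through cytochrome c to complex IV, which reduces oxygen, and complex V, the ATP synthase, uses the proton gradient that complexes I, III and IV build. Most subunits are encoded in the nucleus and some in mitochondrial DNA, and several complex IV subunits have alternative nuclear isoforms that are typical of heart, skeletal muscle, brown fat, lung or testis. Tsc1 encodes hamartin, which with tuberin restrains the kinase complex mTORC1, a known regulator of mitochondrial gene expression and of the translation of mitochondrial proteins.

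The promoters of these genes often hold a binding motif of NRF1, a transcription factor known for activating respiratory chain genes. RefSeq promoter windows from 250 bases before to 50 bases after the gene start (GRCm38.p6) were matched for 76 of the 92 members, and the NRF1 core motif, GCGC followed by any 2 bases and GCGC again, which reads alike on both strands, stood in 21 of them (27.6%). The same motif was found in 15.3% of the windows of 8888 tested genes and in 9.61% of those of 17492 protein-coding genes. The motif stood in 2 of 7 windows of members that were higher in Tsc1-/- aortas, in 3 of 11 windows of members that were lower, and in 16 of 57 windows of members that were not called. To show that members that moved in opposite directions carry it, 130 bases ending just before the start are given for 2 members that were higher, Sdhd and Ndufaf4, and 2 that were lower, Atp5g2 and Ndufa11, read 5′ to 3′ along the gene's own strand with the motif in capitals.
Sdhd, chr9:50603850-50603979 (minus strand): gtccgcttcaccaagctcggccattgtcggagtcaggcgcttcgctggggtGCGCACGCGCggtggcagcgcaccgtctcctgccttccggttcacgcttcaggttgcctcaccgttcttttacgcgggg
Ndufaf4, chr4:24897953-24898082 (plus strand): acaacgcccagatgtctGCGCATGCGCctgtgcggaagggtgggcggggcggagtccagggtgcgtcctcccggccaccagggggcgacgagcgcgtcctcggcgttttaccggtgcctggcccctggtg
Atp5g2, chr15:102671048-102671177 (minus strand): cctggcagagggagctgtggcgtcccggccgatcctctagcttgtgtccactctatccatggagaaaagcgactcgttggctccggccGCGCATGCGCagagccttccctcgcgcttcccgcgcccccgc
Ndufa11, chr17:56717632-56717761 (plus strand): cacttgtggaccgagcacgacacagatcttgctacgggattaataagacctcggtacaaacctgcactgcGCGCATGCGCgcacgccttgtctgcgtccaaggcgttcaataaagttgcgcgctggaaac
The other motifs searched, each on both strands, were AAGGTCA, the core of the estrogen-related receptors, CCGGAAG, the core of GABPA, and AAGATGG, the core of YY1. AAGGTCA stood in 8 of the 76 windows (10.5%, against 3.71% of tested genes), CCGGAAG in 17 (22.4%, against 20.2%) and AAGATGG in 12 (15.8%, against 8.48%). A match describes these letters and does not show that a factor binds.

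Levels are given in FPKM, which scale the sequenced fragments by transcript length and by a measure of library size, so that they can be compared between genes. How library size was set here is not given. Tsc1 itself (chr2:28640993-28691172, GRCm38) had 2.99, 3.58, 3.37 and 3.71 FPKM in Tsc1-/- libraries 1 to 4, against 4.03, 4.82, 4.95 and 6.32 FPKM in Tsc1+/+ libraries 1 to 4, without overlap between the groups. Its log2 difference was -0.44 ± 0.12 (SE, limma on log2(FPKM + 1), Tsc1-/- minus Tsc1+/+, adjusted p = 0.019), and it did not pass among the odd- or the even-numbered libraries alone. Between 11867 and 12083 rows reached 1 FPKM in each library, and the depth relative to Tsc1+/+ 1, a rough figure read from the lowest values, ran from 0.771 to 2.42; absolute depth is unknown. The summed level of 6 smooth muscle markers was 11280 to 15080 FPKM in Tsc1-/- aortas and 17200 to 17590 FPKM in Tsc1+/+ aortas. That of 8 endothelial markers was 108.3 to 163.5 FPKM in Tsc1-/- aortas and 199.8 to 283.0 FPKM in Tsc1+/+ aortas. Fibroblast markers summed to 766.7 to 1055 FPKM in Tsc1-/- aortas and 1113 to 1464 FPKM in Tsc1+/+ aortas, and Schwann cell markers to 3.12 to 5.72 FPKM in Tsc1-/- aortas and 7.28 to 9.79 FPKM in Tsc1+/+ aortas. Of the tested markers 4 of 6 for smooth muscle, 6 of 8 for endothelium, 5 of 7 for fibroblasts and 3 of 3 for Schwann cells passed the test as lower, and no marker was at 0 in all libraries. The fibroblast marker Pdgfra went the other way without a call (log2 difference 0.26, limma adjusted p = 0.0697). In such whole tissue, fewer cells of a type and less RNA per cell cannot be told apart.

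The members as a whole did not shift to one side. The summed level of all 92 rows was 11490 to 12270 FPKM in Tsc1-/- aortas and 11400 to 12770 FPKM in Tsc1+/+ aortas, or 2.57% to 2.70% and 2.36% to 2.69% of the total without small RNA rows. Of the 90 members that reached a mean of 1 FPKM and were tested, 8 were higher in Tsc1-/- aortas and 14 were lower at an adjusted p under 0.05. The median log2 difference was -0.00, against 0.01 over all 12107 tested genes. Over all tested genes 17.1% were called higher and 15% lower, 32.2% in all, against 24.4% of the members. The 4 libraries of each group did not overlap for 8 members that were higher and 14 that were lower, beside 18.3% and 15.6% of all tested genes, 33.9% in all. Cox7b2, a testis form, and Cox8c were not tested: Cox8c was listed at 0 in all libraries, and Cox7b2 was listed at 0 in every Tsc1-/- library and had 0.157, 0, 0 and 0.135 FPKM in Tsc1+/+ aortas.

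The balance of the calls depended on the scaling and on single libraries. With quantile scaling 22 members were higher and 11 lower, so that 66.7% of the called members were higher, against 36.4% with the values as deposited. Among the odd-numbered libraries alone, 2 against 2, 3 members were higher and 13 lower, and among the even-numbered ones 15 were higher and 7 lower; the labels do not name these numbers as a batch. With odd against even numbering as a covariate 12 members were higher and 18 lower. Of the calls over all tested genes, 53.3% were higher with the values as deposited and 51.9% with quantile scaling. That share was 53.2% among the odd-numbered libraries and 51.9% among the even-numbered ones. The higher count of 8 became 14 without Tsc1+/+ 1 and 5 without Tsc1-/- 2, Tsc1-/- 3 or Tsc1+/+ 2. The lower count of 14 became 9 without Tsc1-/- 3, Tsc1-/- 4 or Tsc1+/+ 3. All 21 alternatives kept the calls of 8 members: Ndufaf4, Cox5a and Cox6b2 as higher, and Ndufa6, Cox4i2, Cox7a2l, Atp5e and Atp5g2 as lower.

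**Figure D1:**
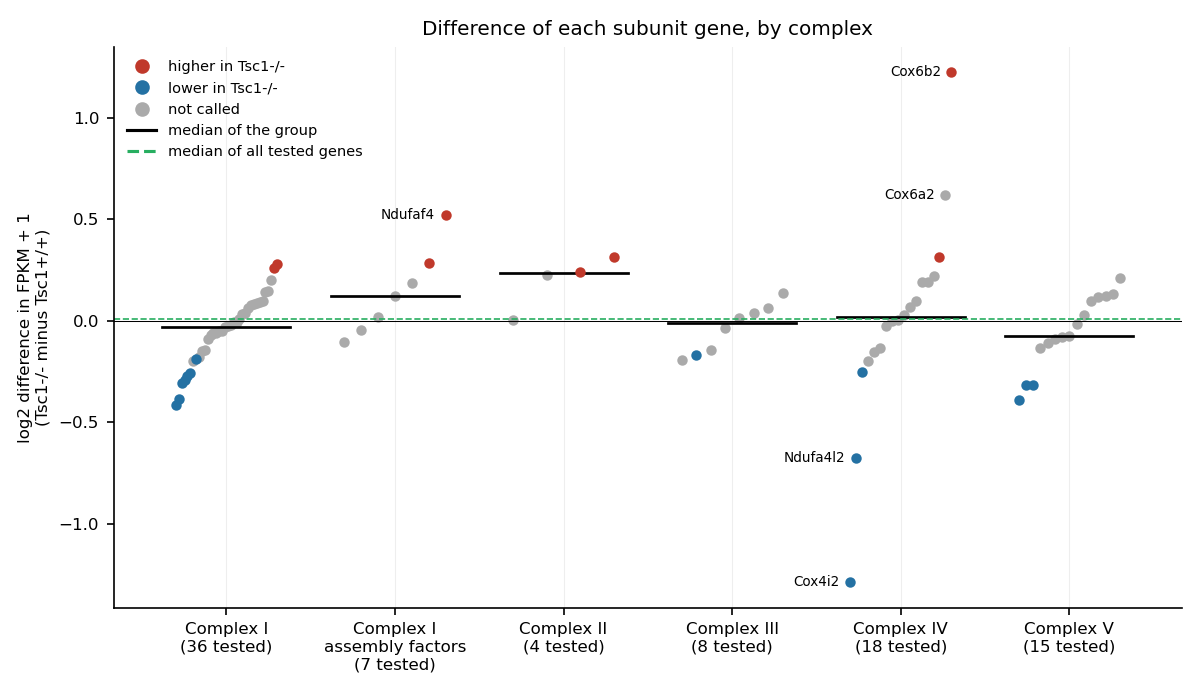
Log2 difference in FPKM + 1 (Tsc1-/- minus Tsc1+/+) on the vertical axis for each tested member, grouped by complex on the horizontal axis, with calls coloured, black bars at the group medians and a dashed line at the median of all tested genes (0.01). Complex II lies above 0 with a median of 0.23, while the other complexes spread to both sides, with Cox4i2 (-1.29) and Cox6b2 (1.22) farthest out.

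In complex I, 2 subunits were higher in Tsc1-/- aortas, 7 were lower and 27 were not called, with a median log2 difference of -0.03. The called share was 25%, beside 32.2% of all tested genes. The higher count was 0 without any 1 of the Tsc1-/- libraries, Tsc1+/+ 2 or Tsc1+/+ 4, 1 without Tsc1+/+ 3, and 5 among the even-numbered libraries. The lower count was 3 without Tsc1-/- 3, Tsc1-/- 4 or Tsc1+/+ 3, 4 without Tsc1-/- 1, and 2 among the even-numbered libraries. Of the nuclear core subunits, which carry the flavin and the iron-sulphur clusters, Ndufs1, Ndufs3, Ndufs7, Ndufs8, Ndufv1 and Ndufv2 did not pass the limma test, 0 of these 6 did so at an unadjusted p under 0.05, and their log2 differences ran from -0.15 to 0.15. All 9 calls were among the 29 accessory subunits, which surround that core. Ndufa6, a matrix arm subunit of the LYR family that binds the acyl carrier protein, had 111, 141, 126 and 133 FPKM in Tsc1-/- aortas, against 167, 168, 166 and 164 FPKM in Tsc1+/+ aortas. The Tsc1+/+ libraries lay close together and all of them lay above every Tsc1-/- library. Ndufa6 averaged 128 ± 12.9 FPKM in Tsc1-/- aortas and 166 ± 1.79 FPKM in Tsc1+/+ aortas (SD, n = 4 each), a log2 difference of -0.39 ± 0.07 (SE, adjusted p = 0.00466).

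Among the other matrix arm subunits, Ndufa7 and Ndufa2 were lower as well and the rest were not called. Ndufa7 had 129, 131, 128 and 127 FPKM in Tsc1-/- aortas and 170.1, 155, 171 and 144 FPKM in Tsc1+/+ aortas, with a log2 difference of -0.31 ± 0.06 (adjusted p = 0.00728). Ndufa2, a small subunit with a thioredoxin-like fold, had 93.8, 98.5, 91.6 and 77 FPKM in Tsc1-/- aortas and 115, 112, 139 and 116 FPKM in Tsc1+/+ aortas, with a log2 difference of -0.42 ± 0.10 (adjusted p = 0.011). For both genes every Tsc1-/- library lay below every Tsc1+/+ library, and neither call held among the even-numbered libraries alone.

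Among the membrane arm subunits, which help to build the proton-pumping part, 4 were lower, 2 were higher and the other members were not called. Ndufb2 had 83.9, 87.6, 83.5 and 75.1 FPKM in Tsc1-/- aortas and 104, 95.2, 116 and 91.3 FPKM in Tsc1+/+ aortas (log2 difference -0.29 ± 0.08, adjusted p = 0.0276). Ndufb11 had 99.2, 94.3, 94.3 and 89.8 FPKM in Tsc1-/- aortas and 102, 109, 114 and 105 FPKM in Tsc1+/+ aortas (-0.19 ± 0.06, adjusted p = 0.031). The groups did not overlap for Ndufb2 or Ndufb11. Ndufc1 had 109.5, 118, 99.4 and 98.7 FPKM in Tsc1-/- aortas and 131, 117, 137 and 122 FPKM in Tsc1+/+ aortas (-0.26 ± 0.08, adjusted p = 0.0335), and Tsc1-/- 2 lay just above Tsc1+/+ 2. Ndufa11, which lies where complex I touches its partners in supercomplexes, averaged 23.2 ± 1.03 FPKM in Tsc1-/- aortas and 28.4 ± 3.32 FPKM in Tsc1+/+ aortas (-0.27 ± 0.08, adjusted p = 0.0347).

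The 2 complex I subunits that were higher also belong to the membrane arm. Ndufa1, a single-pass subunit needed for assembly, had 121, 118, 119.6 and 123 FPKM in Tsc1-/- aortas and 114, 92.4, 105 and 91.9 FPKM in Tsc1+/+ aortas (log2 difference 0.26 ± 0.07, adjusted p = 0.0269), without overlap. Ndufc2 had 89.5, 85.6, 90.7 and 91.7 FPKM in Tsc1-/- aortas and 86.8, 68.3, 76.5 and 64.1 FPKM in Tsc1+/+ aortas (0.28 ± 0.09, adjusted p = 0.0439), and Tsc1+/+ 1 lay within the range of the Tsc1-/- libraries. The membrane arm calls lay near the threshold, and each was lost in several of the fits that left out 1 library. The call of Ndufb2 was lost without Tsc1-/- 1, 3 or 4 or Tsc1+/+ 1 or 3 (-0.30 to -0.23), and that of Ndufc1 without the same libraries (-0.27 to -0.22). Ndufb11 lost its call without Tsc1-/- 2, 3 or 4 or Tsc1+/+ 2 or 3 (-0.19 to -0.16), and Ndufa11 without any Tsc1-/- library or Tsc1+/+ 1 or 3 (-0.29 to -0.21). Ndufa1 lost its call without any Tsc1-/- library or Tsc1+/+ 2 or 4 (0.22 to 0.27), and Ndufc2 without any library but Tsc1+/+ 1 (0.21 to 0.30).

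Levels within complex I spanned a wide range in both groups. Ndufv3 had the highest mean over the 8 libraries, 217 FPKM, and Ndufs4, a subunit known for its loss in inherited complex I deficiency, the lowest, 22.3 FPKM. The summed level of the 36 subunits averaged 3446 ± 54.1 FPKM in Tsc1-/- aortas and 3614 ± 166.3 FPKM in Tsc1+/+ aortas (SD, n = 4 each), with overlap between the groups.

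Complex I assembly factors, which help to put the complex together and do not stay in it, included 2 higher members among 7 and none that was lower by limma, also at an unadjusted p under 0.05 (0 of 7), with a median log2 difference of 0.12. Called were 28.6% of them, beside 32.2% of all tested genes. Ndufaf4, which acts early in the assembly of the matrix arm, had 10.6, 10.1, 9.35 and 9.77 FPKM in Tsc1-/- aortas and 6.44, 6.68, 6.93 and 6.57 FPKM in Tsc1+/+ aortas. The groups stood well apart, and the mean was 49.9% higher in Tsc1-/- aortas (log2 difference 0.52 ± 0.06, adjusted p = 0.000339). Ndufaf7, a methyltransferase that acts during assembly, had 9.06, 9.58, 9.23 and 11.7 FPKM in Tsc1-/- aortas and 8.32, 7.6, 7.49 and 8.32 FPKM in Tsc1+/+ aortas (0.28 ± 0.08, adjusted p = 0.0323). Its groups did not overlap either, but the call was lost without Tsc1-/- 2, Tsc1+/+ 2 or Tsc1+/+ 3 (0.26 to 0.29). Among these factors Ndufaf2 had the highest mean over the 8 libraries, 25.4 FPKM, and Ndufaf6 the lowest, 2.55 FPKM. Ndufaf1 did not overlap between the groups and missed the threshold (0.19, adjusted p = 0.0587).

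Complex II, succinate dehydrogenase, which is also an enzyme of the tricarboxylic acid cycle, is encoded wholly in the nucleus. Of its 4 subunits 2 were higher in Tsc1-/- aortas, with a median log2 difference of 0.23. None was lower, also at an unadjusted p under 0.05 (limma). The called share of 50% rests on 4 genes and stands beside 32.2% of all tested genes. Sdhc and Sdhd are the membrane anchors that hold the heme and the coenzyme Q site. Sdhc (chr1:171129157-171150640, GRCm38) had 142, 155, 151 and 152 FPKM in Tsc1-/- aortas, against 130.2, 111, 123 and 119.6 FPKM in Tsc1+/+ aortas (log2 difference 0.31 ± 0.06, adjusted p = 0.00517). Sdhd had 60.9, 64.8, 68.7 and 62.5 FPKM in Tsc1-/- aortas and 57, 49.3, 55.5 and 55 FPKM in Tsc1+/+ aortas (0.24 ± 0.06, adjusted p = 0.0201). For both anchors every Tsc1-/- library lay above every Tsc1+/+ library. Neither anchor passed among the odd-numbered libraries alone, and Sdhd lost its call without Tsc1-/- 3 (0.21), which left 1 call in the complex.

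Of the catalytic subunits, Sdha, the flavoprotein, had 63.2, 71.7, 75.1 and 68 FPKM in Tsc1-/- aortas and 65.4, 53.6, 59.7 and 58.5 FPKM in Tsc1+/+ aortas, a log2 difference of 0.23 ± 0.08 that missed the threshold (adjusted p = 0.0522). It passed in 7 of the 21 alternatives, among them the fits without Tsc1-/- 1 and without Tsc1+/+ 1, the pair of libraries that overlap. Sdhb, the iron-sulphur subunit, averaged 70.0 ± 5.82 FPKM in Tsc1-/- aortas and 69.9 ± 7.46 FPKM in Tsc1+/+ aortas (log2 difference 0.00, adjusted p = 0.975). The summed level of the 4 genes was 328.9 to 371.1 FPKM in Tsc1-/- aortas and 277.4 to 333.2 FPKM in Tsc1+/+ aortas, and the ranges overlapped through Tsc1-/- 1 and Tsc1+/+ 1. By level, Sdhc led with a mean of 135 FPKM over the 8 libraries and Sdhd came last with 59.2 FPKM.

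Complex III had a single call among 8 subunits, none of them higher by limma, also at an unadjusted p under 0.05, with a median log2 difference of -0.01. Its called share was 12.5%, beside 32.2% of all tested genes. Over all its genes the complex had 1314 to 1453 FPKM in Tsc1-/- aortas and 1404 to 1559 FPKM in Tsc1+/+ aortas, with overlap between the groups. Uqcrh, the hinge protein that aids the docking of cytochrome c and the most abundant subunit transcript of this complex at a mean of 316 FPKM, averaged 297 ± 15.6 FPKM in Tsc1-/- aortas and 334 ± 9.85 FPKM in Tsc1+/+ aortas (-0.17 ± 0.05, adjusted p = 0.042). This call was lost without any 1 library other than Tsc1-/- 2 (-0.18 to -0.15). With odd against even numbering as a covariate 3 subunits were lower, and without Tsc1+/+ 1 none was lower and 1 was higher. Uqcrfs1, the Rieske iron-sulphur protein, had the lowest mean, 48.3 FPKM, and was not called. Cyc1, the cytochrome c1 subunit of complex III that the symbol rule leaves out, averaged 70.4 ± 5.10 FPKM in Tsc1-/- aortas and 75.0 ± 3.07 FPKM in Tsc1+/+ aortas (-0.09, adjusted p = 0.305). Cycs, cytochrome c itself, averaged 32.6 ± 1.61 FPKM in Tsc1-/- aortas and 27.4 ± 6.00 FPKM in Tsc1+/+ aortas (0.26, adjusted p = 0.149).

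**Figure D2:**
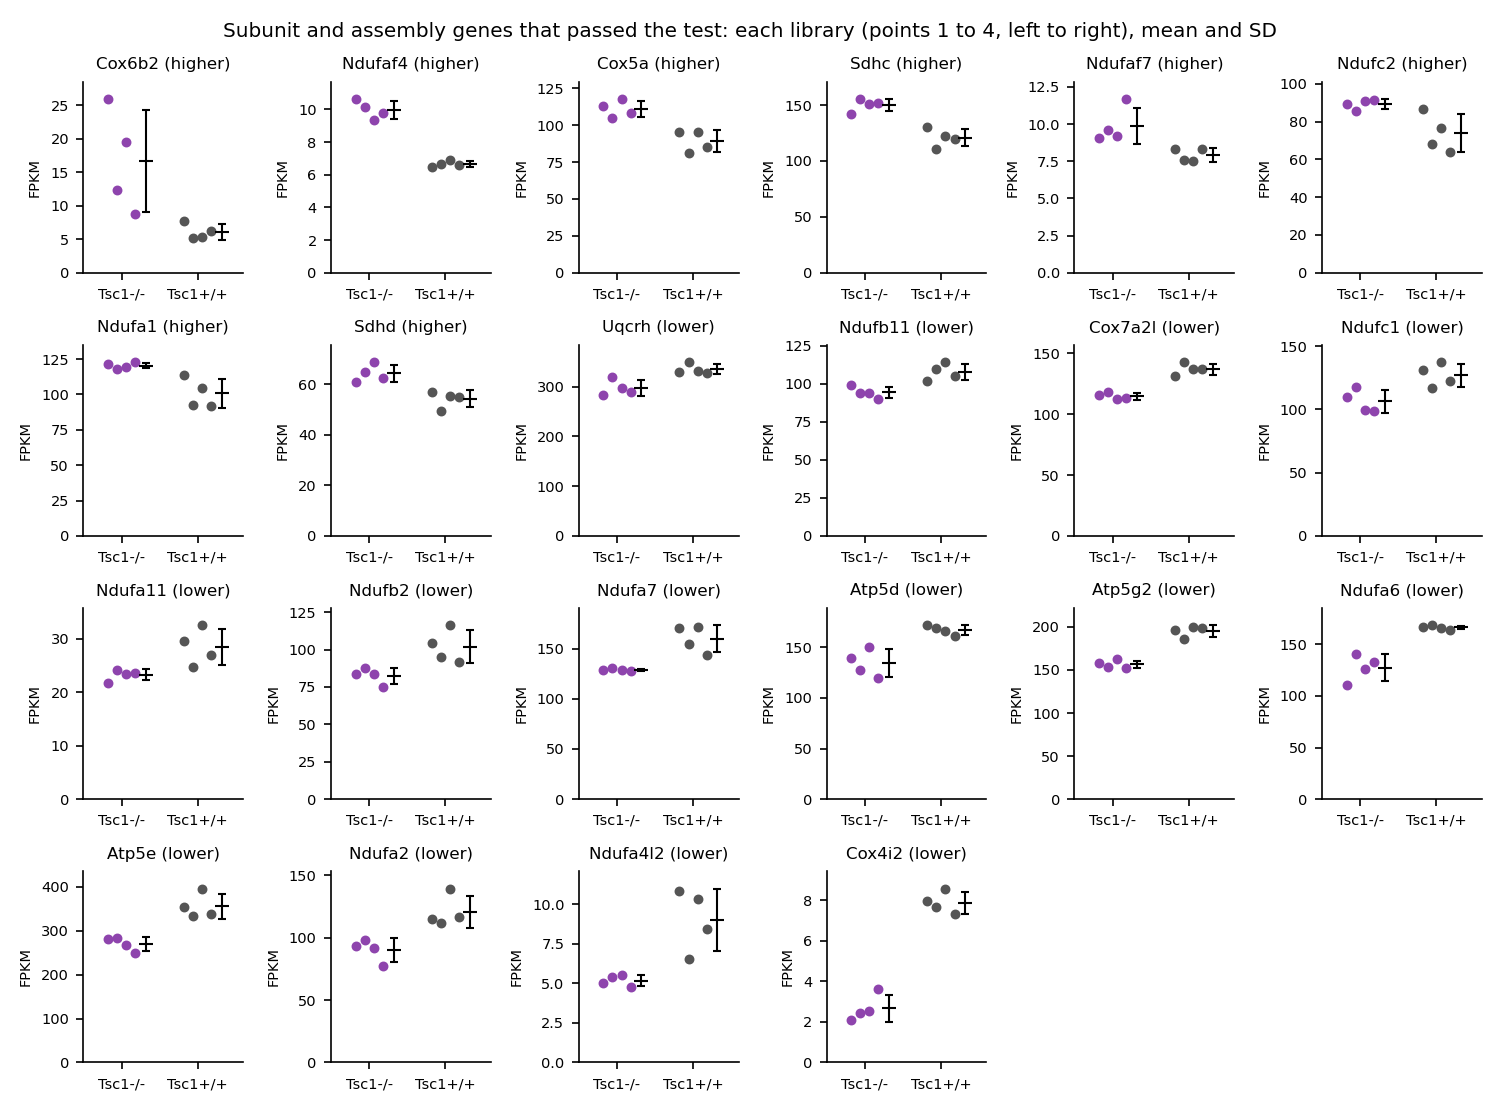
FPKM on the vertical axis, starting at 0, for the 22 members that passed the test, with Tsc1-/- left and Tsc1+/+ right in each panel, 1 point per library (replicates 1 to 4 from left to right) and the mean with its SD beside them. The groups stand widest apart for Cox4i2 and Ndufaf4, while the points of Ndufc1 and Ndufc2 overlap between the groups.

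Complex IV, cytochrome c oxidase, held both the strongest fall and the strongest rise, and both were in minor isoforms of low level. Of 18 tested members 2 were higher, 3 were lower and 13 were not called, with a median log2 difference of 0.02. That made 27.8% called, beside 32.2% of all tested genes. The higher count was 5 without Tsc1+/+ 1 and 8 with quantile scaling, and the lower count was 5 among the odd-numbered libraries. Together the 20 genes had 3145 to 3453 FPKM in Tsc1-/- aortas and 2945 to 3546 FPKM in Tsc1+/+ aortas. The 11 subunits of the usual tissue form included 1 that was higher, Cox5a, and none that was lower, while the 8 rows of tissue-restricted forms, 6 of them tested, included 1 that was higher and 2 that were lower. The remaining row, Cox7a2l, was lower.

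Cox4i2 (chr2:152753916-152765039, GRCm38), the form of subunit 4 known from lung and from cells kept at low oxygen, had 2.09, 2.42, 2.55 and 3.61 FPKM in Tsc1-/- aortas, against 7.95, 7.66, 8.58 and 7.33 FPKM in Tsc1+/+ aortas. All Tsc1-/- libraries lay far below all Tsc1+/+ libraries, and the mean fell by 66.1% (log2 difference -1.29 ± 0.12, adjusted p = 0.000146). The usual form, Cox4i1, had 453, 489, 491 and 447 FPKM in Tsc1-/- aortas and 480.5, 455, 485 and 461 FPKM in Tsc1+/+ aortas, fully overlapping (-0.00, adjusted p = 0.984). With quantile scaling Cox4i1 passed as higher (0.22), so its place relative to other genes depended on the scaling. Cox4i2 made up 0.568% ± 0.158 of the summed Cox4i1 and Cox4i2 level in Tsc1-/- aortas and 1.65% ± 0.0724 in Tsc1+/+ aortas (SD, n = 4 each).

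Ndufa4l2 (chr10:127509274-127517154, GRCm38), a target of hypoxia-inducible factor and the paralogue of the complex IV subunit Ndufa4, had 5.03, 5.4, 5.49 and 4.76 FPKM in Tsc1-/- aortas and 10.8, 6.51, 10.3 and 8.42 FPKM in Tsc1+/+ aortas. The groups did not overlap, with Tsc1+/+ 2 nearest to the Tsc1-/- libraries (log2 difference -0.68 ± 0.14, adjusted p = 0.00575). Ndufa4 had 279, 294, 299 and 289.5 FPKM in Tsc1-/- aortas and 304, 263, 289 and 256 FPKM in Tsc1+/+ aortas (0.07, adjusted p = 0.47). The share of Ndufa4l2 in the pair was 1.75% ± 0.0885 in Tsc1-/- aortas and 3.12% ± 0.484 in Tsc1+/+ aortas. Ndufa4l2 did not pass among the even-numbered libraries alone. The lower smooth muscle, endothelial, fibroblast and Schwann cell marker sums given above went with the lower levels of Cox4i2 and Ndufa4l2, and their part in these differences was not tested.

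Cox6b2 (chr7:4751792-4753094, GRCm38), known as the testis form of subunit 6b, had 25.9, 12.3, 19.6 and 8.77 FPKM in Tsc1-/- aortas, against 7.72, 5.15, 5.26 and 6.23 FPKM in Tsc1+/+ aortas. The Tsc1-/- libraries varied widely, with 1 and 3 highest and 4 only just above the highest Tsc1+/+ library. Its mean was 2.73-fold higher in Tsc1-/- aortas (log2 difference 1.22 ± 0.29, adjusted p = 0.012), with 0.98 to 1.47 when each library was left out in turn. The usual form Cox6b1 had 305, 313, 326 and 288 FPKM in Tsc1-/- aortas and 326, 239, 264 and 257 FPKM in Tsc1+/+ aortas (0.19, adjusted p = 0.158). Cox6b2 made up 5.06% ± 2.17 of the pair in Tsc1-/- aortas and 2.19% ± 0.190 in Tsc1+/+ aortas.

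**Figure D3:**
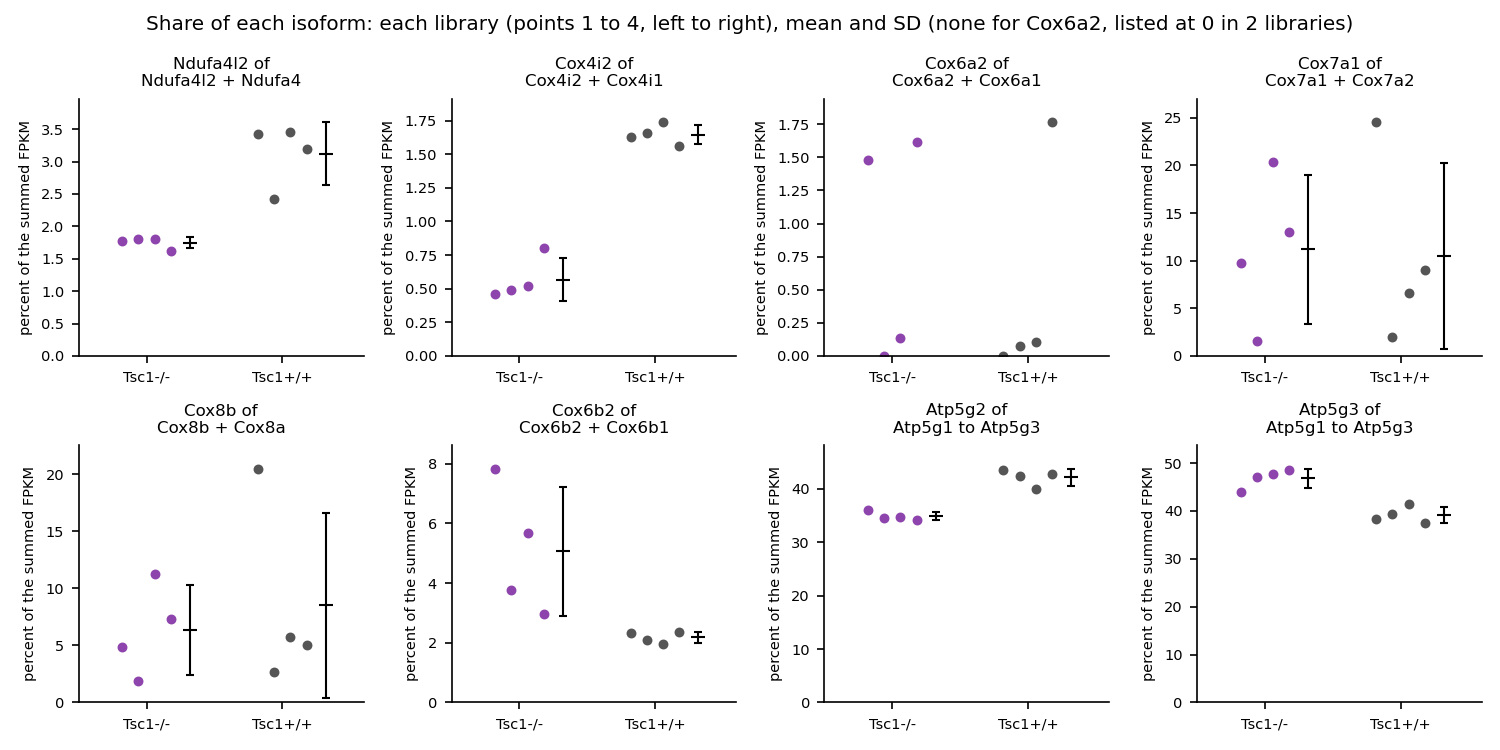
Share of each alternative isoform in the summed FPKM of its isoform group, in percent, by library, with Tsc1-/- left and Tsc1+/+ right in each panel. Cox4i2 and Ndufa4l2 take smaller shares in all 4 Tsc1-/- libraries, Cox6b2 takes larger ones, and the Cox6a2, Cox7a1 and Cox8b shares overlap widely between the groups.

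Among the usual forms, Cox5a, a nuclear subunit on the matrix side, had 113, 105, 118 and 108 FPKM in Tsc1-/- aortas and 95.2, 80.8, 95.3 and 85.3 FPKM in Tsc1+/+ aortas (log2 difference 0.32 ± 0.07, adjusted p = 0.00963), without overlap. Cox5b and Cox6c had log2 differences of 0.22 and 0.19 that missed the threshold (adjusted p = 0.0692 and 0.0705). Cox7a2l, which joins complexes III and IV into supercomplexes and of which C57BL/6 mice are known to carry a shortened form, had 116, 118, 112 and 113 FPKM in Tsc1-/- aortas and 132, 143, 137 and 137 FPKM in Tsc1+/+ aortas (-0.25 ± 0.05, adjusted p = 0.0047). Neither Cox5a nor Cox7a2l overlapped between the groups. Cox6a1 was the most abundant complex IV transcript at a mean of 477 FPKM, and it averaged -0.03 on the log2 scale (adjusted p = 0.767) but passed as higher with quantile scaling (0.18).

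The heart, skeletal muscle and brown fat forms of complex IV were high in single libraries of either genotype and overlapped widely between the groups. Cox8b, the form of subunit 8 in brown fat and striated muscle, had 23.7, 8.57, 58.5 and 31.1 FPKM in Tsc1-/- aortas and 111, 10.8, 26.4 and 20.8 FPKM in Tsc1+/+ aortas (log2 difference -0.20, adjusted p = 0.857). Cox7a1, the striated muscle and brown fat form of subunit 7a, had 11.5, 1.98, 28.8 and 17.2 FPKM in Tsc1-/- aortas and 43.8, 2.36, 9.94 and 11.2 FPKM in Tsc1+/+ aortas (0.00, adjusted p = 0.999). Both were highest in Tsc1+/+ 1 and next highest in Tsc1-/- 3. The same libraries led for the brown fat marker Ucp1, which had 5.92, 1.51, 37.7 and 13.7 FPKM in Tsc1-/- aortas and 42.3, 3.89, 7.03 and 2.72 FPKM in Tsc1+/+ aortas. They also led for the brown fat markers Cidea, Elovl3 and Otop1, but not for Dio2 and Gyk. Dio2 was highest in Tsc1+/+ 3 (7.60 FPKM) and had 3.04 FPKM in Tsc1-/- 3. Gyk was highest in Tsc1+/+ 1, but Tsc1+/+ 3 (11.86 FPKM) lay above Tsc1-/- 3 (9.62 FPKM). The summed level of 6 brown fat markers was 27.57 to 87.03 FPKM in Tsc1-/- aortas and 28.28 to 113.9 FPKM in Tsc1+/+ aortas.

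Cox6a2, the heart and skeletal muscle form of subunit 6a, had 6.72, 0, 0.660 and 7.37 FPKM in Tsc1-/- aortas and 0, 0.341, 0.487 and 8.71 FPKM in Tsc1+/+ aortas (adjusted p = 0.631). It was high in Tsc1-/- 1, Tsc1-/- 4 and Tsc1+/+ 4 and near or at 0 elsewhere. Myoglobin (Mb) followed the same libraries, with 32.8, 0.290, 1.20 and 23.7 FPKM in Tsc1-/- aortas and 0.654, 0.351, 1.25 and 49.7 FPKM in Tsc1+/+ aortas. In Tsc1-/- 1 and 4 the heart myosin Myh6 was at 25.6 and 17.0 FPKM, against 0.129 FPKM in Tsc1+/+ 4, where the skeletal actin Acta1 was at 65.0 FPKM. Together 16 striated muscle markers had 97.72 to 219.6 FPKM in Tsc1-/- aortas and 93.88 to 387.3 FPKM in Tsc1+/+ aortas. Some of them did not follow Cox6a2. Tnnt2 had 84.1 FPKM in Tsc1-/- 2 and 35.5 FPKM in Tsc1+/+ 4, and Actn2 was highest in Tsc1+/+ 2 (9.27 FPKM). Pygm had 40.3 to 46.8 FPKM over all libraries. With a striated muscle score as a covariate Cox6a2 passed as higher (log2 difference 1.20, adjusted p = 0.0382); the part of attached tissue in these isoform levels was not tested.

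**Figure D4:**
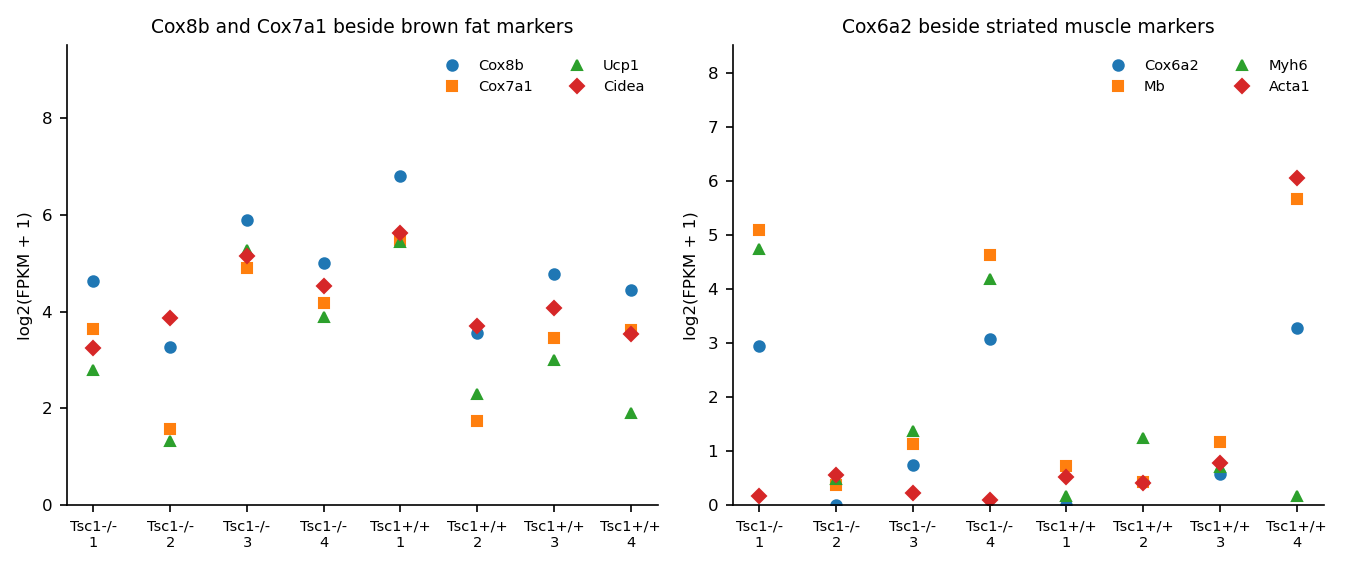
Level of tissue-restricted complex IV isoforms and of tissue markers in each of the 8 libraries, as log2(FPKM + 1), with Tsc1-/- left and Tsc1+/+ right in both panels. Cox8b and Cox7a1 are highest in Tsc1+/+ 1, as Ucp1 and Cidea are. Cox6a2 is high in Tsc1-/- 1, Tsc1-/- 4 and Tsc1+/+ 4, where Mb is high too. Not shown are listed markers that followed other libraries, such as Dio2 and Tnnt2.

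Complex V had 3 lower subunits among 15, none that was higher (limma, 1 at an unadjusted p under 0.05) and a median log2 difference of -0.08. The 20% called lay below the 32.2% of all tested genes. Together the 15 genes had 3200 to 3418 FPKM in Tsc1-/- aortas and 3238 to 3567 FPKM in Tsc1+/+ aortas, and single transcripts ran from a mean of 78.6 FPKM for Atp5f1 to 397 FPKM for Atp5k over the 8 libraries. With quantile scaling 5 subunits were higher. Atp5d and Atp5e, the delta and epsilon subunits of the central stalk that turns inside the F1 head, were both lower. Atp5e (chr2:174461075-174464101, GRCm38) had 281, 284, 267 and 249.6 FPKM in Tsc1-/- aortas, against 354, 333, 396 and 338 FPKM in Tsc1+/+ aortas (-0.39 ± 0.07, adjusted p = 0.00367). Atp5d had 139.6, 127, 151 and 120.0 FPKM in Tsc1-/- aortas and 172, 169, 166 and 161 FPKM in Tsc1+/+ aortas (-0.32 ± 0.07, adjusted p = 0.012). Neither gene overlapped between the groups. Atp5c1, the gamma subunit and the other part of the stalk, did not overlap either but missed the threshold (-0.13, adjusted p = 0.0829). The alpha and beta subunits of the F1 head, Atp5a1 and Atp5b, each had a log2 difference of 0.12 and were not called (adjusted p = 0.156 and 0.159).

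The 3 genes Atp5g1, Atp5g2 and Atp5g3 encode the same mature c subunit, the proton-carrying ring of the membrane part, with different targeting sequences. Atp5g2 (chr15:102662868-102671047, GRCm38) had 158, 153, 162 and 152 FPKM in Tsc1-/- aortas, against 196, 186, 200.2 and 198 FPKM in Tsc1+/+ aortas, without overlap (-0.32 ± 0.05, adjusted p = 0.00161). Atp5g3 had 193, 209, 222 and 216 FPKM in Tsc1-/- aortas and 173, 172, 208 and 174 FPKM in Tsc1+/+ aortas (0.21 ± 0.08, adjusted p = 0.0681), with Tsc1+/+ 3 inside the range of the Tsc1-/- libraries. Without Tsc1+/+ 3, Atp5g3 passed as higher, as it did in 3 other alternatives. Atp5g1 had 87.3, 81.9, 81.4 and 76.9 FPKM in Tsc1-/- aortas and 81.8, 79.7, 94.2 and 91.1 FPKM in Tsc1+/+ aortas (-0.08, adjusted p = 0.426). As a share of the c-subunit transcripts, Atp5g2 averaged 34.9% ± 0.790 in Tsc1-/- aortas and 42.2% ± 1.58 in Tsc1+/+ aortas. Atp5g3 averaged 46.8% ± 1.96 in Tsc1-/- aortas and 39.2% ± 1.64 in Tsc1+/+ aortas (SD, n = 4 each).

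Most calls were modest in size. All 14 lower and 7 of the 8 higher members had under 600 coding bases, as had 64 of the 90 tested members. Leaving aside Cox4i2, Ndufa4l2 and Cox6b2, the means of the 12 other lower members fell by 11.1% to 25.3%, and those of the 7 other higher members were 18.5% to 49.9% higher. The 14 lower members had coding lengths of 156 to 516 bases (median 366), the 8 higher ones 210 to 1308 bases (median 457.5) and the 68 without a call 168 to 2181 bases (median 493.5). Among the 64 tested members with under 600 coding bases, 21.9% were lower and 10.9% higher, against 20.4% and 16.3% of 1423 tested genes of that length. Among the 26 longer members none was lower and 3.85% were higher, against 14.1% and 17.7% of 9796 longer genes. The limit of 600 bases was chosen after the values were seen.

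In 6 lists of mitochondrial genes outside the rule, limma called genes as higher and none as lower. This stands beside the 17.1% higher and 15% lower of all tested genes given above. Called as higher were 57.1% of the carriers and porins and 26.8% of the assembly and regulatory factors. The share was 25% in coenzyme Q synthesis and 18.8% among the biogenesis regulators. It was 13.6% in the tricarboxylic acid cycle list and 5.26% in fatty acid oxidation, both below the 17.1%. With odd against even numbering as a covariate 1 gene each was lower among the carriers and porins, in coenzyme Q synthesis and in the tricarboxylic acid cycle list. At an unadjusted p under 0.05 the lower genes were 2 assembly and regulatory factors, 1 biogenesis regulator and 1 gene of the tricarboxylic acid cycle list, and 0 carriers, coenzyme Q or fatty acid oxidation genes. Of 41 tested assembly and regulatory factors of the complexes 11 were higher in Tsc1-/- aortas and none was lower, with a median log2 difference of 0.08. Among the odd-numbered libraries alone 5 were higher and 1 lower, among the even-numbered ones 4 were higher, and 1 was lower without Tsc1-/- 1 or Tsc1-/- 2. The examples were chosen after their values were seen. Taco1, which activates the translation of a complex IV subunit in mitochondria, had 4.70, 4.50, 4.71 and 5.35 FPKM in Tsc1-/- aortas and 3.37, 2.58, 2.84 and 3.78 FPKM in Tsc1+/+ aortas (0.50 ± 0.10, adjusted p = 0.00632). Atpif1, the inhibitor of ATP hydrolysis by complex V, averaged 199 ± 27.8 FPKM in Tsc1-/- aortas and 144 ± 3.27 FPKM in Tsc1+/+ aortas (0.45 ± 0.09, adjusted p = 0.00664). The groups overlapped for neither gene. Of 7 tested adenine nucleotide and phosphate carriers and porins, 4 were higher and none lower (median 0.20). Vdac3, a porin of the outer membrane, averaged 98.5 ± 8.95 FPKM in Tsc1-/- aortas and 78.9 ± 4.03 FPKM in Tsc1+/+ aortas (0.32 ± 0.07, adjusted p = 0.0111).

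Of 16 tested regulators of mitochondrial biogenesis 3 were higher (Ppargc1a, Ppargc1b and Ppara) and none was lower, with a median log2 difference of 0.00. The Ppara call was lost in 11 of 20 alternatives, among them the fits without Tsc1-/- 2, 3 or 4 or Tsc1+/+ 2, 3 or 4 (log2 difference 0.42 to 0.55). Ppargc1a, the coactivator PGC-1 alpha, had 3.01, 2.63, 3.23 and 2.74 FPKM in Tsc1-/- aortas, against 0.812, 0.878, 0.480 and 1.32 FPKM in Tsc1+/+ aortas (1.08 ± 0.14, adjusted p = 0.000617). All Tsc1-/- libraries had more than every Tsc1+/+ library, and the call held in the 20 alternatives that tested the gene. Its Tsc1+/+ mean, 0.871 FPKM, lay below the 1 FPKM filter, so Ppargc1a was among the tested genes only through its Tsc1-/- level. The lack of overlap and the kept calls are therefore a description and no separate support. Nrf1, whose motif is described above, was not called (log2 difference -0.13, limma adjusted p = 0.129). Its groups did not overlap, with at most 6.39 FPKM in Tsc1-/- aortas and at least 6.44 FPKM in Tsc1+/+ aortas. Tfam, which packs and transcribes mitochondrial DNA, had a log2 difference of 0.00 (limma adjusted p = 0.973). In coenzyme Q synthesis 3 of 12 genes were higher and none lower (median 0.09), with 1 higher and 0 lower among the odd-numbered libraries and 1 higher and 1 lower among the even-numbered ones.

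In the tricarboxylic acid cycle and the pyruvate dehydrogenase complex 3 of 22 genes were higher and none lower (median 0.11), led by the kinase Pdk2 (0.61 ± 0.11, adjusted p = 0.00423), which inhibits pyruvate dehydrogenase. That count of 3 became 7 without Tsc1+/+ 1, and 1 without Tsc1-/- 2, 3 or 4 or Tsc1+/+ 4, and 1 gene was lower without Tsc1+/+ 3. In fatty acid oxidation 1 of 19 genes was higher, Cpt1a, the enzyme that admits long-chain fatty acids (0.60 ± 0.10, adjusted p = 0.00254), and none was lower (median -0.02). This count of 1 became 5 without Tsc1+/+ 1 and 2 without Tsc1-/- 1. Tsc1+/+ 1 held the highest summed level of 10 fat cell markers, 1035 FPKM, against 279.1 to 607.0 FPKM in Tsc1-/- aortas and 334.9 to 406.5 FPKM in the other 3 Tsc1+/+ libraries. With a fat cell score as a covariate the counts were 7 in the tricarboxylic acid cycle list and 5 in fatty acid oxidation. Subunits encoded by mitochondrial DNA were not analysed here.

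**Figure D5:**
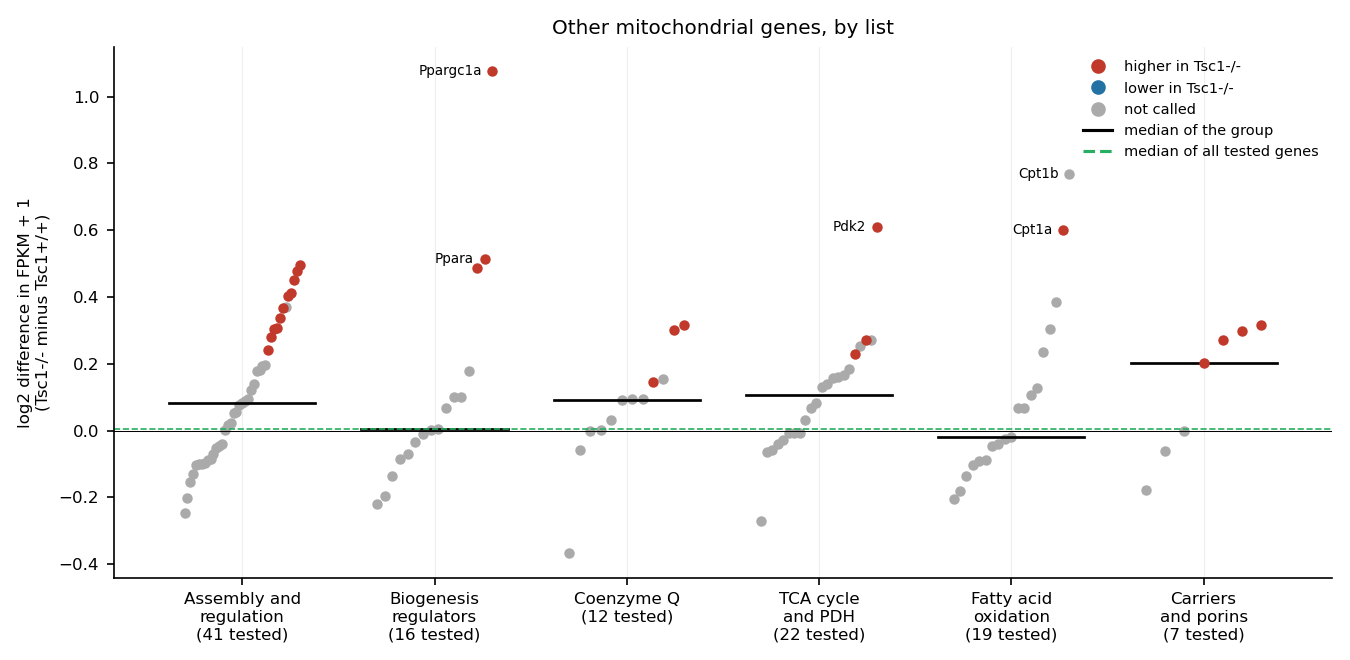
Log2 difference in FPKM + 1 (Tsc1-/- minus Tsc1+/+) on the vertical axis for each tested gene of 6 other mitochondrial lists, with calls in red, black bars at the list medians and a dashed line at the median of all tested genes. No gene of these lists passed as lower in this fit. Ppargc1a (1.08), whose Tsc1+/+ mean lay below the 1 FPKM filter, lies highest.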

How the data were processed

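PolyA RNA of whole thoracic aortas was sequenced in 8 libraries, 4 Tsc1-/- and 4 Tsc1+/+, and the authors deposited FPKM per gene symbol and library. Per the submitters' processing notes, TopHat2, Cufflinks and Cuffdiff were used with mm10; no versions or roles are named. How libraries were scaled, which annotation was used and whether strand was counted is not given in the sources used here. Such values are not counts and absolute depth is unknown, so no interval for counting error is given.

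Values were used as deposited, as log2(FPKM + 1), a scale on which low genes show smaller changes. Genes averaging 1 FPKM or more across the libraries (12107) were fitted with limma 3.58.1 in R 4.3.3 (lmFit, then eBayes with trend) as Tsc1-/- minus Tsc1+/+, two-sided, with Benjamini-Hochberg adjustment over all tested genes and calls at an adjusted p under 0.05. The fit was also run on simulated data with independent noise and few changed genes. That run does not show how the fit performs on these libraries. Replicates are numbered libraries that no label ties to separate mice; p-values measure the spread between these libraries, which may be technical.

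Exon overlaps with other genes were looked up only for the called members, Sdha and Sdhb. Among these, overlaps on the opposite strand, which the unknown strand setting may not separate, affect Atp5d, Cox5a, Ndufa2, Ndufa4l2, Ndufa11, Ndufb2 and Ndufb11. Atp5g2 and Ndufb2 share exon sequence with a gene on their own strand. Coordinates and promoters come from RefSeq (GRCm38), lengths from GENCODE M21. Of the members, 76 had a promoter window; Atp5a1, Cox4i1, Cox4i2, Cox6a2, Cox6c, Cox8c, Ndufa2, Ndufa4l2, Ndufaf6, Ndufb9, Ndufs1, Sdhc, Uqcrb, Uqcrc2 and Uqcrq were among those not matched. Values of 1 member are not reported here.

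Named are all called members, with values per library for at most 12 per direction by adjusted p, the isoform pairs, complex II, the highest and lowest member of each complex, Tsc1, Cyc1 and Cycs. The members, lists, tests and alternatives were chosen with earlier results of these data known. Alternatives were another pseudocount (0.1), no filter, a mean of at least 5 FPKM, median-of-ratios and quantile scaling, library weights, no trend, a replicate block, odd- or even-numbered libraries alone, odd or even number as a covariate, fat and striated muscle scores as covariates, and leaving out each library.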

Additional observations from a re-analysis of the deposited data

Results flagged for a closer look

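In 4 cases 1 library stood apart from the other 3 of its group by the Dixon criterion, among 84 groups of 4 libraries examined (called members, isoform groups, complex II and the sums per complex); chance flags about 1 in 20 such groups. Cox8b had 111 FPKM in Tsc1+/+ 1 and 10.8 to 26.4 FPKM in the other Tsc1+/+ libraries. Cox6a2 had 8.71 FPKM in Tsc1+/+ 4 and 0 to 0.487 FPKM in the other Tsc1+/+ libraries. Atp5g3 had 208 FPKM in Tsc1+/+ 3 and 172 to 174 FPKM in the other Tsc1+/+ libraries. Ndufa2 had 139 FPKM in Tsc1+/+ 3 and 112 to 116 FPKM in the other Tsc1+/+ libraries.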

How the results depend on the processing

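With the values as deposited 8 members were called higher and 14 lower. The higher count was 22 with quantile scaling, 3 among odd-numbered and 15 among even-numbered libraries, 13 with the fat score and 12 with odd against even numbering as a covariate. The lower count was 7 among even-numbered libraries and 18 with odd against even numbering as a covariate. Leaving out 1 library in turn gave 5 to 14 higher and 9 to 13 lower members. Over all genes the 21 alternatives gave 1611 to 2636 higher and 1417 to 2353 lower genes. Cox4i1 (0.22) and Cox6a1 (0.18) changed sign and passed as higher with quantile scaling; the cause was not tested. None of the 3 called biogenesis regulators averaged 5 FPKM, so the stricter filter leaves them untested. Of the 22 called members 8 were called in every alternative and 14 lost the call in at least 1. The replicate numbers did not pair the libraries: same-numbered libraries deviated together with r = 0.0656, 0.138, 0.135 and 0.173, and Tsc1-/- 1 correlated best with Tsc1+/+ 3. Libraries that were both odd- or both even-numbered correlated positively across the groups (0.02 to 0.17) and mixed ones negatively (-0.19 to -0.05). Deviations from a group mean cancel within the group, so positive values in some pairs entail negative ones in others. A replicate block gave 10 higher and 14 lower members, and 2349 higher and 2122 lower genes in all. Depth could be read only as a ratio between libraries, so the counting error of low members such as Cox6a2 is unknown.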
